A study of Mus musculus with 12 samples.

Results

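The signal chain that leads from the stimulatory G protein to protein kinase A (PKA) was followed through 10 of its genes in mouse neutrophils and macrophages exposed to calcitonin gene-related peptide (CGRP), a neuropeptide released by sensory neurons. They were chosen by name, with earlier results of these data known. All 10 were found in both deposited count tables, among 52636 genes in each. In the order of the chain they are the G protein alpha subunits *Gnas* and *Gnai2*, the adenylyl cyclases *Adcy7* and *Adcy9*, the PKA catalytic subunits *Prkaca* and *Prkacb*, the regulatory subunits *Prkar1a*, *Prkar2a* and *Prkar2b*, and the anchoring protein *Akap13*. All cells came from the bone marrow of C57BL/6J mice aged 8 to 12 weeks. Neutrophils were enriched with a negative selection kit and used directly. Monocytes were isolated with another kit and grown with M-CSF, which drives monocytes towards macrophages, at 10 ng/ml for 3 days; the sample labels call them monocyte/macrophage, and they are named macrophages here. Each cell type was then kept for 4 h with 1 nM CGRP or with saline (PBS), with 3 RNA-seq libraries in each of the 4 groups. The labels do not say whether the 3 libraries of a group came from separate mice, so that p-values measure only the spread between these libraries.

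CGRP acts on a receptor made of CALCRL and RAMP1. The receptor couples to the stimulatory G protein, whose alpha subunit activates adenylyl cyclases at the plasma membrane; inhibitory G proteins act on the same enzymes in the opposite direction. The cyclic AMP (cAMP) they make binds the regulatory subunits of PKA and frees the catalytic subunits, which phosphorylate cytosolic proteins and, in the nucleus, the transcription factor CREB. In neutrophils and macrophages a rise in cAMP is known to dampen migration, oxidative burst and inflammatory cytokine release.

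Reads were counted once per molecule through unique molecular identifiers, and library totals ran from 2002559 to 3631989 counts. Levels are given in CPM, that is counts scaled to one common library size, after TMM scaling over the 12 libraries, and CGRP was compared with PBS by limma-voom within each cell type, with Benjamini-Hochberg adjusted p-values over all genes tested. On this scale 3 counts, taken as the floor, corresponded to between 0.861 and 1.51 CPM. The libraries were primed at the poly(A) tail, so that levels of different genes are compared both in CPM and in CPM per kilobase of exon.

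The member that responded to CGRP was *Prkar1a*, which encodes the type I alpha regulatory subunit, the subunit that holds the kinase inactive until cAMP binds. It rose in neutrophils from 346 ± 10.8 to 532 ± 23.9 CPM (mean ± SD, n = 3), a 1.55-fold increase. The other 8 members that could be tested in neutrophils did not pass the test, and none of the 9 tested in macrophages did. *Prkar1a* was therefore 1 of 9 members called in neutrophils, where 2.53% of all 9819 genes tested were called (1.51% as higher), and the count in macrophages was 0 of 9, where 7.43% of 9393 genes were called. At an unadjusted p under 0.05 in limma-voom the counts were 3 of 9, against 12.8% of all genes, and 1 of 9, against 19.8%. *Adcy9* was too low for the test in either cell type.

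*Prkar1a* lies on chr11:109649405-109669656 (GRCm38, plus strand). Its levels in neutrophils were 337, 358 and 343 CPM with PBS and 557, 509 and 530 CPM with CGRP. Every CGRP library lay above every PBS library. The log2 fold change was 0.63 (SE 0.08, 95% interval 0.47 to 0.79), with an adjusted p of 3.79e-05 (limma-voom). In macrophages its levels were 293, 287 and 265 CPM with PBS and 369, 376 and 361 CPM with CGRP. Here, too, the groups did not overlap. The log2 fold change of 0.39 (SE 0.12, 95% interval 0.14 to 0.65) missed the threshold, with an adjusted p of 0.0635. It passed in 4 of 10 other ways of fitting the same libraries, with DESeq2 (adjusted p = 0.0481), with limma's library quality weights (adjusted p = 0.0245), in a single fit over all 12 libraries (adjusted p = 0.00962) and with the library total as a covariate (adjusted p = 0.0115). The difference between the responses of the cell types was -0.23 (log2, macrophages minus neutrophils, 95% interval -0.51 to 0.05), with an adjusted p of 0.522 in limma-voom over the 12 libraries. *Adcy9* was kept in that fit through its macrophage counts and is left out of the counts here. None of the 9 members tested within each cell type passed that test (2.36% of 10694 genes were called), nor with edgeR or DESeq2. At an unadjusted p under 0.05 in limma-voom 1 of the 9 did, *Gnai2*, against 13.2% of all genes. A smaller response in macrophages is therefore not shown.

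The 4 groups stood in a clear order for *Prkar1a*: neutrophils with CGRP were highest, followed by macrophages with CGRP, neutrophils with PBS and macrophages with PBS. No neighbouring groups in this order overlapped. The 3 genes whose profiles over the 12 libraries were closest to it, out of 8634 searched, were *Rap2c*, a small GTPase, *Ifitm2*, a membrane protein of antiviral defence, and *Trappc5*, a subunit of a vesicle tethering complex. Their root mean square distances from *Prkar1a*, on centred log2 CPM, were 0.129, 0.136 and 0.150.

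Because *Prkar1a* was the member that passed the test, its start was searched for the palindrome TGACGTCA, the letters that CREB and related factors are known to bind as a cAMP response element. The palindrome reads the same on both strands. RefSeq (GRCm38.p6) gives 6 windows for *Prkar1a*, each from 250 bases before to 50 after a transcript start, and 2 of them, which overlap, hold it at the same place. It is shown in capitals with its flanking bases, at chr11:109650889-109650918 on the plus strand.

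*Prkar1a*: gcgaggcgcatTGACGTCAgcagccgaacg

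The first base of the palindrome lies 49 bases before one RefSeq start and 38 bases after the other. In the GENCODE annotation the stretch overlapped no exon; it lies inside 3 of the gene's 5 transcripts, and the next transcript start is 21 bases downstream of the first palindrome base. Of all 32851 RefSeq windows, 1.79% hold TGACGTCA, and 20.8% hold the shorter TGACG on either strand, which every TGACGTCA also contains. Among the other members with a window, none held the palindrome, while TGACG stood in at least 1 window of *Prkaca*, *Prkacb*, *Prkar2a*, *Gnas*, *Adcy7* and *Adcy9*. Nor did any window of *Pkib*, *Pkig*, *Akap10*, *Nr4a2*, *Pde4b*, *Fos*, *Rgs2*, *Atf3*, *Ramp3*, *Ramp1* or *Calcrl* hold the palindrome, and each of these genes passed the test of CGRP against PBS in at least 1 cell type. *Gnai2*, *Gngt2* and *Crem* had no window. The shares above are per window, and a gene with several windows, such as *Prkar1a* with 6, has more places for a match. These matches describe the sequence and were not tested as binding sites.

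**Figure D1:**
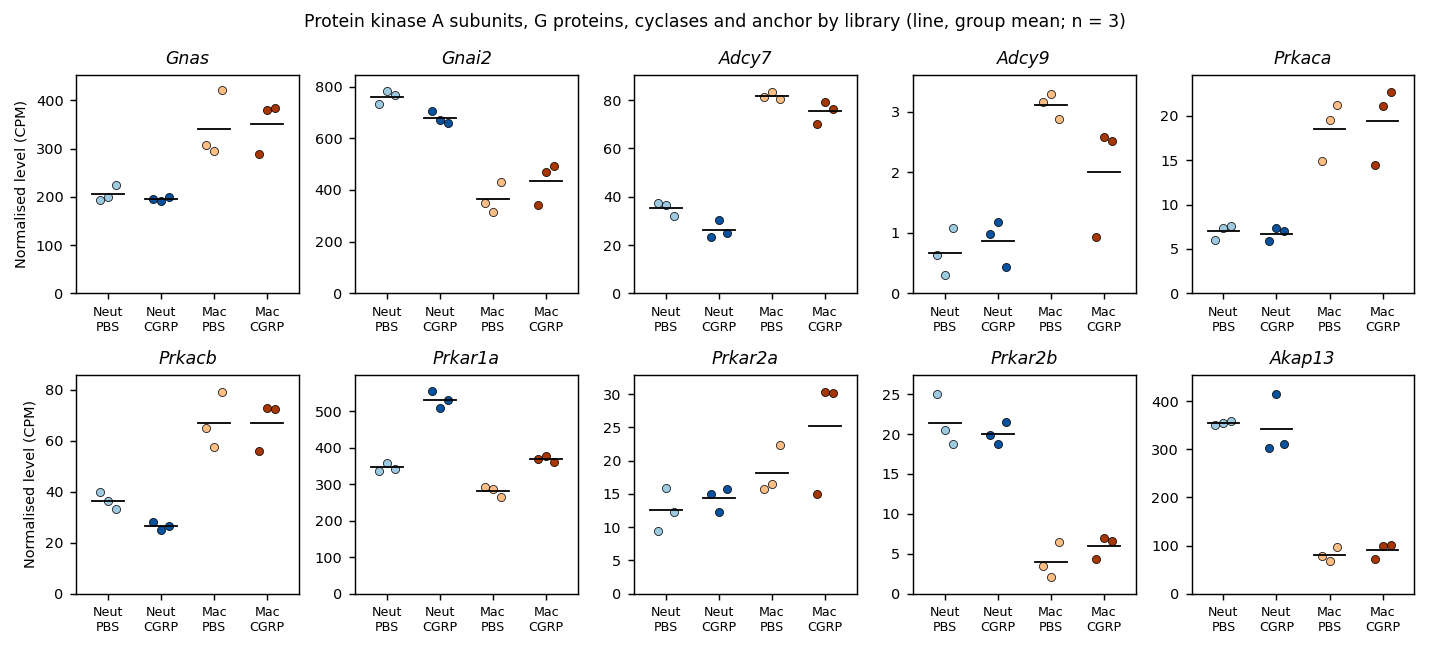
Normalised level (CPM, linear axes from 0) of the 10 members in each of the 12 libraries, with 3 points per group and a line at the group mean. *Prkar1a* stood higher with CGRP in both cell types, at 532 against 346 CPM in neutrophils and 369 against 282 CPM in macrophages, and most other members differed more between the cell types than between CGRP and PBS.

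The other regulatory subunits are those of type II PKA, which is known for its tight binding to anchoring proteins. *Prkar2a* (chr9:108689314-108750436, plus strand) was at 9.49, 16.0 and 12.2 CPM in PBS neutrophils and at 14.96, 12.3 and 15.8 CPM with CGRP. Its PBS macrophages were at 15.8, 16.5 and 22.3 CPM, and its CGRP macrophages at 15.04, 30.3 and 30.2 CPM. The groups overlapped in both cell types, and its log2 fold changes were 0.21 in neutrophils (adjusted p = 0.792, limma-voom) and 0.39 in macrophages (adjusted p = 0.480, limma-voom). Both values moved with single libraries. In neutrophils it was 0.01 without PBS replicate 1 and 0.40 without PBS replicate 2. In macrophages it was 0.76 without CGRP replicate 1 (adjusted p = 0.0470, limma-voom), 0.19 without CGRP replicate 2 (adjusted p = 0.847) and 0.24 without CGRP replicate 3 (adjusted p = 0.762).

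*Prkar2b* (chr12:31958476-32061296, minus strand), a subunit known from platelets, adipose tissue and brain, was at 24.98, 20.6 and 18.7 CPM in PBS neutrophils and 19.8, 18.8 and 21.5 CPM with CGRP. Macrophages had 3.44, 2.10 and 6.47 CPM with PBS and 4.39, 7.02 and 6.54 CPM with CGRP. Neither comparison passed: the log2 fold change was -0.09 in neutrophils (adjusted p = 0.896, limma-voom) and 0.70 in macrophages (adjusted p = 0.399, limma-voom, 95% interval -0.20 to 1.59). The macrophage value was 0.32 without PBS replicate 2 and 1.06 without PBS replicate 3. *Prkar1b*, the remaining regulatory subunit, had at most 9 counts in any library and was not tested.

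*Prkar1a* led the regulatory subunits in every group on both scales. In PBS neutrophils it stood at 80.1 CPM per kilobase, against 5.87 for *Prkar2b* and 1.97 for *Prkar2a*. In PBS macrophages it stood at 65.2 CPM per kilobase, and the type II subunits had changed places, with 2.85 for *Prkar2a* and 1.10 for *Prkar2b*. Summed in CPM within a library, type I subunits exceeded type II subunits by ratios of 9.80, 9.83 and 11.1 in PBS neutrophils and 16.0, 16.4 and 14.2 in CGRP neutrophils. These 2 groups did not overlap. In macrophages the ratios were 15.4, 15.5 and 9.28 with PBS and 19.1, 10.1 and 9.90 with CGRP, and the groups overlapped.

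The catalytic subunits carry the kinase activity, and neither passed the test in either cell type. *Prkacb* (chr3:146729574-146812990, minus strand) was at 39.8, 36.5 and 33.1 CPM in PBS neutrophils and at 28.0, 24.9 and 26.7 CPM with CGRP. All CGRP neutrophil libraries were below all PBS libraries. The log2 fold change was -0.45 (95% interval -0.76 to -0.14), with an adjusted p of 0.148 (limma-voom). Macrophages stood at 64.8, 57.5 and 79.1 CPM with PBS and 56.1, 72.8 and 72.4 CPM with CGRP, with overlapping groups and a log2 fold change of 0.00 (95% interval -0.35 to 0.36, adjusted p = 0.999, limma-voom).

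*Prkaca* (chr8:83972993-83996443, plus strand) was at 6.01, 7.37 and 7.57 CPM in PBS neutrophils and 5.85, 7.33 and 7.01 CPM with CGRP, from 16 to 25 counts per library. Its macrophage levels were 14.9, 19.5 and 21.2 CPM with PBS and 14.4, 21.1 and 22.6 CPM with CGRP. The groups overlapped in both cell types, with log2 fold changes of -0.03 and 0.04 and 95% intervals of -0.63 to 0.56 in neutrophils and -0.47 to 0.55 in macrophages. *Prkacb* was the higher of the catalytic subunits in CPM in every library, by ratios of 2.95 to 6.63. Per kilobase they lay closer, at 4.16 for *Prkacb* and 2.81 for *Prkaca* in PBS neutrophils, and in CGRP macrophages the order turned, with 7.65 for *Prkacb* and 7.79 for *Prkaca*.

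At the top of the chain, *Gnas* (chr2:174284320-174346744, plus strand) encodes the alpha subunit of the stimulatory G protein. It was at 194, 200 and 224 CPM in PBS neutrophils and 195, 192 and 199 CPM with CGRP. Macrophage levels were 308, 294 and 420 CPM with PBS and 290, 381 and 383 CPM with CGRP. The groups overlapped in both cell types, and the log2 fold changes were -0.06 (95% interval -0.24 to 0.12) and 0.05 (95% interval -0.28 to 0.39). The locus is imprinted and holds several overlapping transcripts, which were counted together; the genes on its opposite strand, *Nespas* and *Gm20721*, had at most 2 and 6 counts in any library.

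*Gnai2* (chr9:107614125-107635367, minus strand), an inhibitory alpha subunit and a major G protein of chemoattractant receptors in leukocytes, was at 733, 783 and 766 CPM in PBS neutrophils and 706, 672 and 659 CPM with CGRP. All CGRP neutrophil libraries were below all PBS libraries, with a log2 fold change of -0.15 (95% interval -0.30 to 0.01, adjusted p = 0.421, limma-voom). In macrophages it was at 351, 315 and 432 CPM with PBS and 343, 469 and 491 CPM with CGRP, where the groups overlapped and the log2 fold change was 0.24 (adjusted p = 0.431, limma-voom). The responses of the cell types differed by 0.40 (log2, 95% interval 0.04 to 0.77), with an adjusted p of 0.311 in limma-voom. The call depended on the fit: without macrophage CGRP replicate 1 the difference was 0.57 (adjusted p = 0.0474, limma-voom), and with library quality weights it was 0.51 (adjusted p = 0.0402). Within each library *Gnai2* exceeded *Gnas* in CPM. The ratios were 3.42 to 3.91 in PBS neutrophils, 3.31 to 3.61 in CGRP neutrophils, 1.03 to 1.14 in PBS macrophages and 1.19 to 1.28 in CGRP macrophages. Per kilobase they stood farther apart, at 201 for *Gnai2* and 18.4 for *Gnas* in PBS neutrophils and at 96.8 and 30.5 in PBS macrophages (CPM per kilobase).

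*Adcy7* (chr8:88272403-88329962, plus strand), the cyclase known as the main isoform of blood cells, was at 37.6, 36.5 and 32.1 CPM in PBS neutrophils and 23.4, 30.5 and 24.99 CPM with CGRP. Macrophage libraries stood at 81.5, 83.3 and 80.5 CPM with PBS and 70.2, 79.4 and 76.5 CPM with CGRP. It was the one member whose CGRP libraries were below all PBS libraries in both cell types, yet it passed neither test. The log2 fold changes were -0.41 in neutrophils (95% interval -0.74 to -0.08, adjusted p = 0.233, limma-voom) and -0.12 in macrophages (95% interval -0.41 to 0.18, adjusted p = 0.703, limma-voom).

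*Adcy9* (chr16:4287529-4420498, minus strand) had 2, 1 and 3 counts in PBS neutrophils and 3, 4 and 1 with CGRP. In macrophages it had 11, 11 and 8 counts with PBS and 3, 7 and 5 with CGRP. The macrophage groups did not overlap, and the ratio of summed counts per library total, CGRP to PBS, was 0.590 with an exact 95% interval of 0.295 to 1.13, which covers counting error only. A change of *Adcy9* was not detectable at this depth. Among the cyclases *Adcy7* was highest per kilobase in every group, followed by *Adcy3* and *Adcy9*. Of the 10 listed cyclases 2 were tested within each cell type, *Adcy7* and *Adcy3*, and neither passed.

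*Akap13* (chr7:75455534-75754609, plus strand) encodes an anchoring protein that also activates the GTPase RhoA. It was at 351, 355 and 359 CPM in PBS neutrophils and 302, 416 and 310 CPM with CGRP, where CGRP replicate 2 stood above and the other CGRP libraries below all PBS libraries. In macrophages it was at 78.3, 67.1 and 97.1 CPM with PBS and 72.7, 99.4 and 100.1 CPM with CGRP, again with overlapping groups. The log2 fold changes were -0.05 (adjusted p = 0.907, limma-voom) and 0.17 (adjusted p = 0.657, limma-voom). Without single libraries the macrophage value ran from 0.04 (without PBS replicate 2) to 0.32 (without CGRP replicate 1).

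Across the 9 tested members, 2 log2 fold changes were positive and 7 negative in neutrophils, with a median of -0.06 against 0.00 over all genes tested. In macrophages 8 were positive and 1 negative, with a median of 0.17 against 0.00. Of all genes tested, 50.2% were positive in neutrophils and 50.7% in macrophages. CGRP and PBS libraries did not overlap for 4 members in neutrophils, against 17.8% of all genes tested, and for 2 members in macrophages, against 24.1%. In macrophages, 7 of the 9 members were highest in the same 3 libraries, which were PBS replicate 3 and CGRP replicates 2 and 3. These were the macrophage libraries with the smallest totals, at 2536415, 2692858 and 2002559 counts. The exceptions were *Prkar1a* and *Adcy7*, and the share of all genes with this pattern was not counted. The part of depth in these values was not tested beyond a fit with the log2 library total as a covariate, in which none of the 7 passed. In that fit the macrophage log2 fold changes of *Prkaca*, *Prkacb*, *Gnas* and *Akap13* turned to -0.14, -0.15, -0.13 and -0.01, and those of *Prkar2a*, *Prkar2b* and *Gnai2* came to 0.12, 0.30 and 0.06, so that the count of 8 positive values did not hold.

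**Figure D2:**
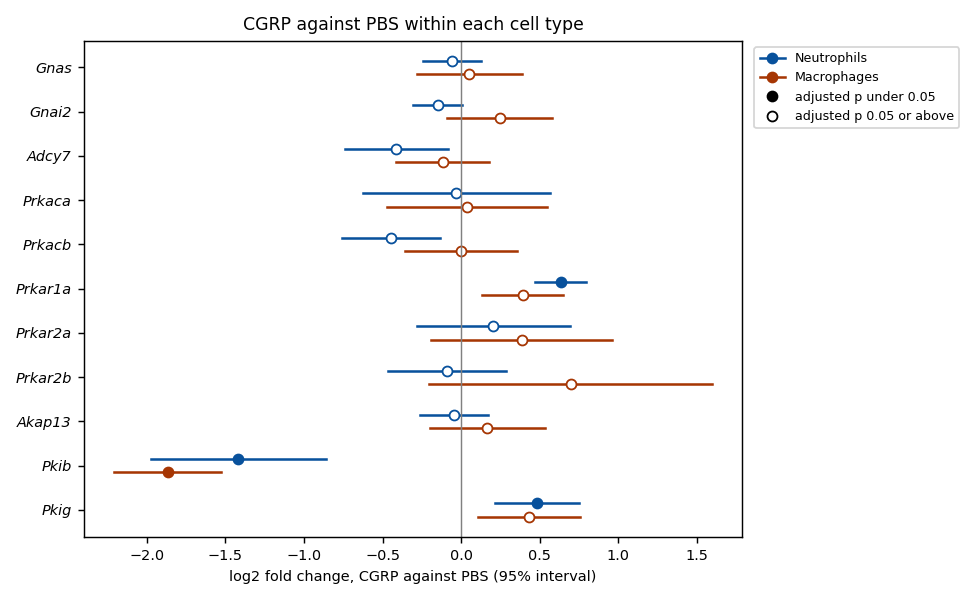
Log2 fold change of CGRP against PBS (points, with 95% intervals from limma-voom) in neutrophils and macrophages for the 9 members that were tested and for the PKA inhibitor genes *Pkib* and *Pkig*; filled points passed an adjusted p of 0.05. *Prkar1a* was filled in neutrophils only, at 0.63, and *Pkib* lay at -1.42 and -1.87, farther from 0 than any member.

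Levels of most members differed between the cell types. In the PBS libraries 8 of the 9 members that were also tested within each cell type passed the test of macrophages against neutrophils, 4 of them higher in macrophages and 4 lower, where 67.9% of all 10694 genes tested were called, 32.5% as higher and 35.4% as lower. Cell type, culture, medium and count table cannot be told apart in this comparison, and in whole-sample RNA fewer cells of a type and less RNA per cell cannot be told apart either. On the stimulatory side *Gnas* was 1.63-fold higher in macrophages, *Adcy7* 2.30-fold, *Prkacb* 1.81-fold and *Prkaca* 2.59-fold. Their log2 differences were 0.71, 1.20, 0.86 and 1.37, with adjusted p-values of 5.86e-05, 4.86e-08, 3.66e-05 and 7.47e-05 (limma-voom). *Adcy9* had 30 counts in macrophages against 6 in neutrophils, a ratio per library total of 5.14 (exact 95% interval 2.10 to 15.1, counting error only). It was kept in the fit over 12 libraries through its macrophage counts, so that its fitted difference and p-value are not given.

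Lower in macrophages were *Akap13* (4.46-fold, log2 difference -2.16, adjusted p = 1.04e-11), *Prkar2b* (5.88-fold, log2 difference -2.55, adjusted p = 3.74e-07), *Gnai2* (2.10-fold, log2 difference -1.07, adjusted p = 8.82e-08) and *Prkar1a* (1.23-fold, log2 difference -0.30, adjusted p = 8.80e-03), all from limma-voom. The PBS groups of these 8 members did not overlap, as for 70.5% of all genes tested. *Prkar2a* was the one of the 9 that did not pass, with a log2 difference of 0.52 (95% interval -0.05 to 1.09, adjusted p = 0.0989, limma-voom; 0.0424 without macrophage CGRP replicate 1). The direction of these 9 held without TMM scaling.

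The defining markers were present in the libraries of each labelled cell type, and markers of other marrow cells were present in the neutrophil libraries. The 11 neutrophil markers summed to between 162900 and 236200 CPM in PBS neutrophils and between 302 and 395 CPM in PBS macrophages, led by *S100a8* in both. *Ly6g*, the defining neutrophil marker, was at 866 CPM in PBS neutrophils and 0.539 CPM in PBS macrophages. The 13 monocyte and macrophage markers were led by *Ly6c2* in neutrophils, at a sum of 4633 to 5418 CPM with PBS, and by *Apoe* in macrophages, at 34700 to 38810 CPM. Neutrophil libraries also held all 7 erythroid markers (5799 to 7410 CPM with PBS, led by *Hbb-bs*), all 7 mast cell, basophil and eosinophil markers (988 to 1163 CPM, led by *Prg2*), all 7 B cell markers (109 to 128 CPM, led by *Cd79b*), 6 of 7 T and NK cell markers (115 to 133 CPM, led by *Nkg7*, with *Ncr1* at 0 with PBS and 4 markers at 3 counts or more over the 3 PBS libraries) and the 4 dendritic cell markers (7.93 to 12.01 CPM, led by *Flt3*, with *Xcr1* at 2 counts with PBS and 0 with CGRP). In PBS macrophages the erythroid sum was 20.5 to 23.4 CPM, and *Cd3e*, *Epx* and *Xcr1* were among the markers at 0. The part of these cells in the differences between the cell types was not tested.

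Since *Prkar2b* is known from platelets, platelet markers are given beside it. Of 11 platelet and megakaryocyte genes, 10 were above 0 in neutrophil libraries, with *Gp1ba* at 0 in all 12 libraries. The sum was led by *Pf4* in both cell types, and with it ran from 194 to 206 CPM in PBS neutrophils and from 138 to 208 CPM in CGRP neutrophils. Without *Pf4* it was 63.2, 62.0 and 53.0 CPM in PBS neutrophils, 45.8, 30.5 and 39.9 CPM in CGRP neutrophils, 4.88, 5.09 and 8.27 CPM in PBS macrophages and 11.6, 7.02 and 15.1 CPM in CGRP macrophages, where the groups overlapped. This lower sum in CGRP neutrophils came from 1 gene: without *Pf4* and *Itgb3* it was 29.4, 27.9 and 27.0 CPM with PBS and 34.8, 22.6 and 35.1 CPM with CGRP, and the groups overlapped. *Itgb3*, an integrin subunit, fell from 31.3 to 7.93 CPM (log2 fold change -1.96, adjusted p = 7.51e-05, limma-voom) and was the 1 list member called of 5 tested, while the *Prkar2b* groups overlapped. The part of platelets in the level of *Prkar2b* was not tested. Within neutrophils no erythroid, B cell, T and NK cell, mast cell, basophil and eosinophil, or dendritic cell marker was called between CGRP and PBS, although the summed T and NK cell markers were lower in every CGRP library (83.6 to 111 CPM) than in every PBS library. Of the 12 tested monocyte and macrophage markers, 1 was called there, *Ccr2*, which fell from 317 to 223 CPM. *Ccr2*, *Cx3cr1* (89.5 to 67.8 CPM) and *Adgre1* (41.2 to 28.7 CPM) were lower in every CGRP neutrophil library than in every PBS library, and 1 marker was higher. Among all genes tested, 8.83% stood below in this way and 8.96% above. Within macrophages *Ccr2* and *Cx3cr1* fell (log2 fold changes of -0.81 and -1.36, adjusted p = 4.80e-04 and 1.43e-04, limma-voom) and *Apoe* rose (0.46, adjusted p = 0.0263, limma-voom). The summed monocyte and macrophage markers there ran from 43000 to 49730 CPM with CGRP, above every PBS library. *Apoe* led this sum, with group means of 24720 CPM with PBS and 33870 CPM with CGRP. Of the 13 markers, 11 log2 fold changes were positive and 2 negative. None of the 8 neutrophil markers tested in macrophages was called, but all 8 log2 fold changes were positive, with a median of 0.38 against 0.00 over all genes, and the sum of all 11 was 417 to 446 CPM with CGRP, again above every PBS library. The part of these markers in the responses of the members was not tested.

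**Figure D3:**
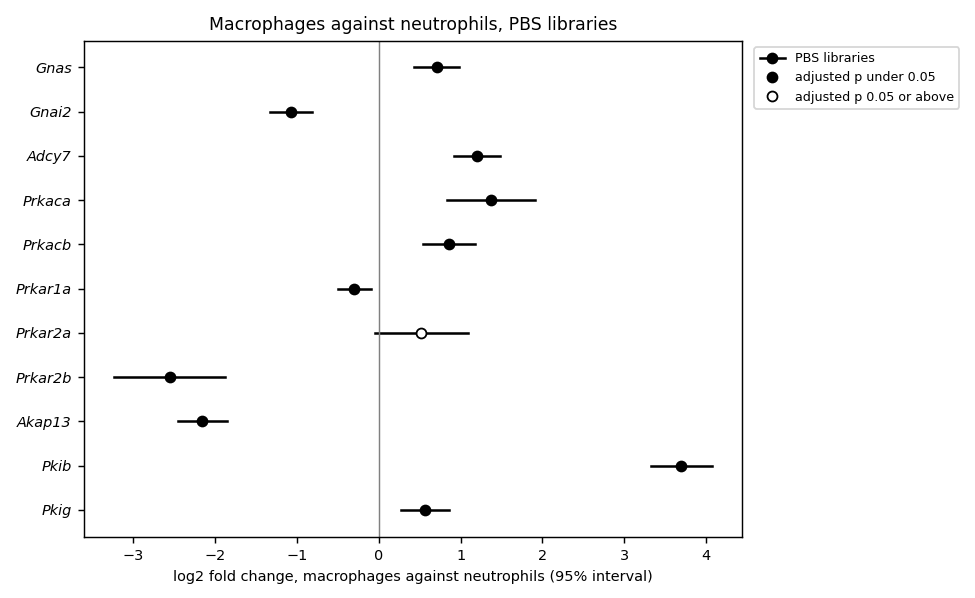
Log2 fold change of macrophages against neutrophils in the PBS libraries (points, with 95% intervals from limma-voom over 12 libraries) for the 9 members tested within each cell type and for *Pkib* and *Pkig*; filled points passed an adjusted p of 0.05. Members lay between -2.55 (*Prkar2b*) and 1.37 (*Prkaca*), and *Pkib* stood beyond them at 3.70.

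Heat-stable inhibitor peptides of the PKI family bind the free catalytic subunit, block it and carry it out of the nucleus. *Pkib* (chr10:57631981-57741112, plus strand) had 45, 44 and 41 counts in PBS neutrophils and 16, 16 and 13 with CGRP, or 14.2, 13.5 and 14.8 CPM against 5.20, 4.69 and 5.70 CPM. In macrophages it was at 182, 215 and 163 CPM with PBS and 56.4, 50.2 and 44.3 CPM with CGRP. The groups stood well apart in both cell types. *Pkib* fell 2.67-fold in neutrophils (log2 fold change -1.42, SE 0.27, adjusted p = 3.43e-03) and 3.65-fold in macrophages (log2 fold change -1.87, SE 0.16, adjusted p = 1.76e-06), both from limma-voom. The responses differed by -0.44 (log2, 95% interval -1.11 to 0.24, adjusted p = 0.648, limma-voom). In the PBS libraries it was 13.0-fold higher in macrophages (adjusted p = 1.87e-14, limma-voom).

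*Pkig* (chr2:163658386-163726158, plus strand), a second inhibitor peptide, was at 39.5, 39.0 and 36.7 CPM in PBS neutrophils and 57.2, 49.6 and 53.5 CPM with CGRP. It rose there by 0.48 on the log2 scale (SE 0.13), and the adjusted p was 0.0471 (limma-voom). That call stood at the edge: it was lost without any 1 of the 6 libraries (adjusted p from 0.0745 to 0.170), with DESeq2 (adjusted p = 0.123), when no low genes were filtered out (adjusted p = 0.111) and in the single fit (adjusted p = 0.161). In macrophages *Pkig* was at 59.4, 57.2 and 54.3 CPM with PBS and 65.5, 81.3 and 87.0 CPM with CGRP. The groups did not overlap, and the log2 fold change of 0.43 had an adjusted p of 0.110 (limma-voom); without CGRP replicate 1 it was 0.56 (adjusted p = 0.0413). It also passed with library quality weights (0.46, adjusted p = 0.0275) and in the single fit over 12 libraries (0.42, adjusted p = 0.0414, limma-voom).

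The balance of the inhibitors differed between CGRP and PBS libraries in both cell types. It follows from the opposite changes above and adds no test of them. The ratio of *Pkig* to *Pkib* in CPM was 2.78, 2.89 and 2.49 in PBS neutrophils and 11, 10.6 and 9.38 with CGRP. In macrophages it was 0.325, 0.266 and 0.334 with PBS and 1.16, 1.62 and 1.97 with CGRP. Per kilobase *Pkib* was the highest of the family in PBS macrophages only, and *Pkig* was the highest in the other groups. *Pkia*, the third member, was at 0 in all 6 neutrophil libraries and had at most 5 counts in a macrophage library.

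**Figure D4:**
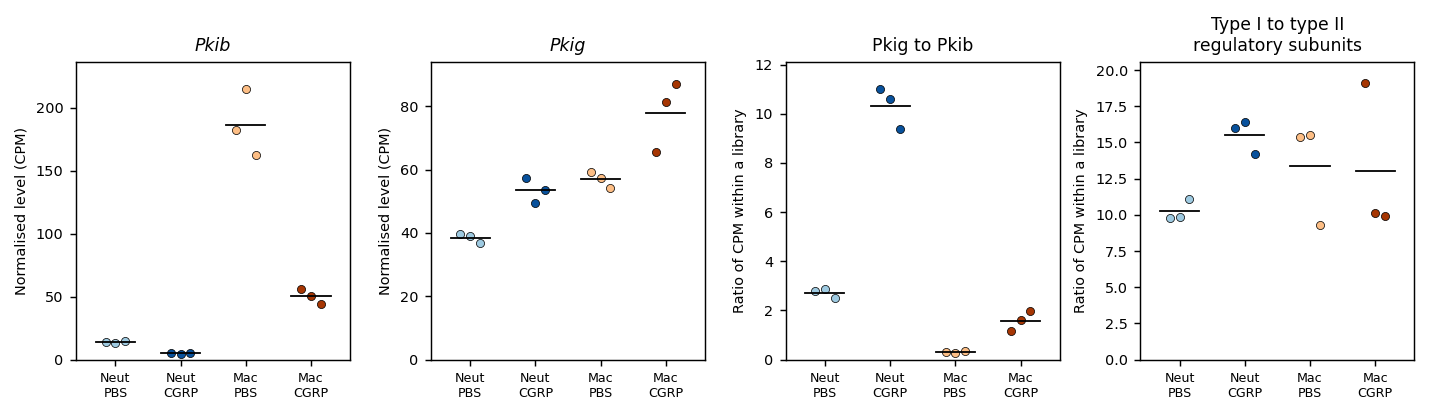
Normalised level (CPM) of *Pkib* and *Pkig*, the ratio of *Pkig* to *Pkib*, and the ratio of type I (*Prkar1a*, *Prkar1b*) to type II (*Prkar2a*, *Prkar2b*) regulatory subunits in each of the 12 libraries (linear axes from 0, line at the group mean, n = 3). *Pkib* was lower with CGRP in both cell types, and the inhibitor ratio ran from 9.38 to 11 in CGRP neutrophils against 2.49 to 2.89 with PBS.

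The rest of the chain was followed through a list. Over the 77 genes listed from G proteins to anchoring proteins and other cAMP effectors, members included, 33 were tested in neutrophils, of which 3 rose and 1 fell, where 2.53% of all genes were called. In macrophages 34 were tested, of which 2 fell, near the 7.43% of all genes called there. None of 36, which included *Adcy9* through its macrophage counts, passed the test of the difference between the cell types in limma-voom. Beside *Prkar1a*, *Pkib* and *Pkig*, the genes called were *Gngt2* and *Akap10*. *Gngt2* (chr11:95837216-95845734, plus strand), a G protein gamma subunit, was at 123, 122 and 125 CPM in PBS neutrophils and 179, 158 and 171 CPM with CGRP (log2 fold change 0.47, adjusted p = 4.23e-03, limma-voom). It shares 234 exonic bases with *Abi3* on the opposite strand, and since the strand setting of the counting is not stated, reads of these genes may not be told apart. For *Abi3* itself the difference was 0.13 (log2, adjusted p = 0.801, limma-voom). In the single fit over 12 libraries *Gngt2* did not pass (adjusted p = 0.190). None of the other 6 tested G beta and gamma genes passed in neutrophils, nor any of 9 in macrophages.

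*Akap10* (chr11:61871307-61930252, minus strand), a mitochondrial anchoring protein, was at 40.7, 41.7 and 23.0 CPM in PBS macrophages and 17.2, 12.6 and 10.1 CPM with CGRP. It fell by 1.35 on the log2 scale (SE 0.28), and the adjusted p was 6.68e-03 (limma-voom). In neutrophils it was at 23.4, 28.5 and 16.6 CPM with PBS and 28.0, 32.3 and 9.21 CPM with CGRP, with overlapping groups (log2 fold change -0.02, adjusted p = 0.989, limma-voom). The difference between the cell types, -1.30, had an adjusted p of 0.206, of 0.0141 without neutrophil CGRP replicate 3 and of 0.00249 with the replicate number as a block (limma-voom). The other 11 anchoring proteins tested in macrophages, and all 13 tested in neutrophils, did not pass. Neither did the list of stimulatory alpha genes and their chaperone *Ric8b* (2 tested of 3 listed), the inhibitory alpha genes (2 of 5) or the catalytic subunits (2 of 2) in either cell type. None of the 9 other cAMP effectors reached the count needed for the test. The best known of these, *Rapgef3*, which encodes the cAMP sensor EPAC1 and is named here after its counts were seen, had 8, 7 and 12 counts in PBS neutrophils and 3, 5 and 4 with CGRP.

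Genes at either end of the chain are given for comparison. Of the receptor genes, *Ramp3* rose in both cell types, *Ramp1* fell in neutrophils (log2 fold change -0.46) and *Calcrl* fell in macrophages (-1.75). *Ramp3* had 5 to 6 counts per PBS neutrophil library and 25 to 34 with CGRP. In macrophages it had 2 to 6 counts with PBS and 50 to 85 with CGRP. Its PBS counts lay near the floor, so that its fitted fold changes are not given. Of the 17 genes listed as induced by cAMP in many cells, 12 were tested in neutrophils, of which 4 rose (2.53% of all genes were called), and 9 in macrophages, of which 6 rose and 1 fell (7.43% of all genes were called). The list's median log2 fold change was 0.47 in neutrophils and 0.93 in macrophages, against 0.00 over all genes in each. The list was chosen with earlier results of these data known, so that these counts and medians are a description only. *Nr4a2*, an orphan nuclear receptor, rose in neutrophils (1.47, adjusted p = 2.79e-04, limma-voom). In macrophages it had 4 to 11 counts per library with PBS and 75 to 131 with CGRP. It is among the 6 that rose there, but was kept in that test through its CGRP counts, so that its fitted fold change is not given. *Pde4b*, a cAMP phosphodiesterase, rose in both cell types (0.60 and 3.45, adjusted p = 5.01e-03 and 7.99e-09, limma-voom). So did *Fos* (1.30 and 0.77, adjusted p = 1.69e-06 and 1.49e-03, limma-voom). The neutrophil call of *Pde4b* was lost without PBS replicate 2 (0.53, adjusted p = 0.0633, limma-voom). The difference between the cell types for *Fos*, -0.52, had an adjusted p of 0.177, and of 0.0446 with library quality weights (limma-voom). *Crem*, which encodes cAMP-responsive activators and repressors, rose from 13.8 to 178 CPM in macrophages (log2 fold change 3.68, adjusted p = 5.40e-09, limma-voom) while its neutrophil value of 0.81 did not pass (adjusted p = 0.0692, limma-voom; 0.0182 without CGRP replicate 1). *Rgs2*, which limits G protein signalling, rose in macrophages (0.85, adjusted p = 1.39e-03, limma-voom). *Atf3*, a stress-induced transcription factor, was the listed gene that fell there, from 251 to 54.9 CPM (log2 fold change -2.17, adjusted p = 5.61e-07, limma-voom).

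**Figure D5:**
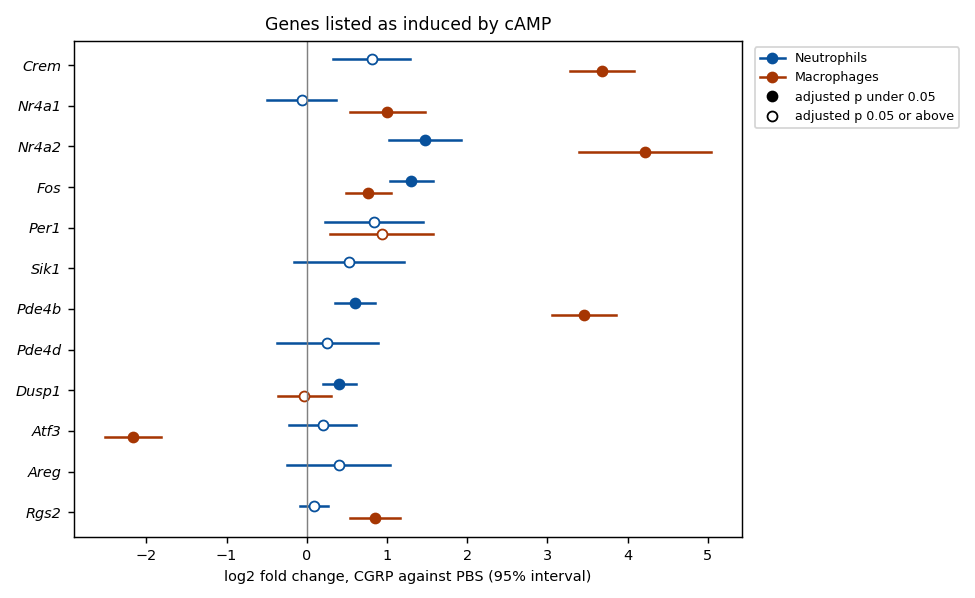
Log2 fold change of CGRP against PBS (points, with 95% intervals from limma-voom) in neutrophils and macrophages for the tested genes of a list known to be induced by cAMP; filled points passed an adjusted p of 0.05. *Crem* and *Pde4b* lay at 3.68 and 3.45 in macrophages, and *Atf3* lay at -2.17. The macrophage point of *Nr4a2* rests on 4 to 11 counts per PBS library.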

How the data were processed

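The authors aligned reads to GRCm38 with STAR within nfCore/RNAseq v3.2, removed PCR copies by UMI and counted genes with featureCounts; the annotation release and strand setting are not given in the sources used here. The deposited raw counts, 1 table per cell type, were used as they stand. The members and gene lists were chosen with earlier results of these data known. Genes were kept by filterByExpr, scaled by TMM and tested by limma-voom (limma 3.58.1, edgeR 4.0.16, R 4.3.3; two-sided, threshold 0.05): each cell type on its 6 libraries, and the difference between responses and between PBS libraries on all 12. Beside the 10 members, the text names up to 6 genes per pathway list past the threshold, the 3 genes most like *Prkar1a*, and from each marker list the most abundant gene and genes at 0. Further genes of these lists are named outside this rule, among them *Prkar1b*, *Pkia*, *Adcy3*, *Ric8b*, *Rapgef3*, *Ly6g*, *Itgb3*, *Ccr2*, *Cx3cr1* and *Adgre1*. Coordinates and exonic lengths came from GENCODE M21, which held 52403 of the 52636 identifiers. Fits were tested on simulated data. Of simulated log2 changes of 1 in size, 75.8% were recovered in neutrophils, 58.2% in macrophages and 43.3% for the difference between responses. Smaller changes may therefore be missed. Alternatives included edgeR's quasi-likelihood test, DESeq2 1.42.0, other scalings and filters, and leaving out each library. Floors and intervals on counts cover counting error only.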

Additional observations from a re-analysis of the deposited data

Results flagged for a closer look

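No member met a rule for a closer look. Of the 12 tested genes listed as induced by cAMP, 5 had a response that differed between the cell types by the test of the difference itself. In that test (limma-voom over 12 libraries) 2.36% of 10694 genes were called. The list was chosen with earlier results of these data known, so that its count is a description only. The differences, macrophages minus neutrophils on the log2 scale, were 2.88 for *Crem* (adjusted p = 1.29e-06), 2.75 for *Nr4a2* (adjusted p = 3.74e-04), 2.86 for *Pde4b* (adjusted p = 1.98e-08), -2.35 for *Atf3* (adjusted p = 1.06e-05) and 0.77 for *Rgs2* (adjusted p = 0.0107). The value for *Nr4a2* rests on 4 to 11 counts per PBS macrophage library. The call for *Rgs2* was lost without neutrophil CGRP replicate 3 (adjusted p = 0.0548). No test of single outlying libraries was run. Fits with library quality weights and without each library are given in the next section.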

How the results depend on the processing

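The call for *Prkar1a* and the fall of *Pkib* in neutrophils, and the fall of *Pkib* and *Akap10* in macrophages, held under all 10 alternatives and without any 1 library. So did the calls of the 8 members called between PBS libraries, under 9 alternatives (8 for *Prkar2b*). Calls of members and pathway genes that depended on the fit are given beside their genes.

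The number of genes called was 248 in neutrophils, and 137 in the single fit over 12 libraries. In macrophages it was 698, and 1406 with library quality weights and 1050 in the single fit. For the difference between the responses it was 252, and 520 with quality weights. Without 1 library the counts ran from 138 to 234 in neutrophils, from 347 to 765 in macrophages, from 149 to 328 for the difference and from 6889 to 7559 for the PBS libraries; the lowest came without PBS replicate 1 or 2 in neutrophils, and without macrophage PBS replicate 1 for macrophages and for the difference. In macrophages 348 were called without CGRP replicate 2 and 439 without CGRP replicate 3, and in neutrophils 153 without CGRP replicate 2. With library totals in place of TMM the higher and lower calls were 150 and 64 in neutrophils (148 and 100 with TMM), 88 and 154 for the difference (129 and 123), 245 and 405 in macrophages (325 and 373) and 3720 and 3441 between PBS libraries (3472 and 3791).

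Whether the replicate numbers of the labels pair the libraries was not settled. Deviations of same-numbered libraries correlated at -0.0312 to 0.0985 in neutrophils (different numbers, -0.116 to 0.121) and -0.161 to 0.209 in macrophages (-0.325 to 0.298). The 12 same-numbered pairs between cell types ran from -0.0611 to 0.183, and the 24 others from -0.149 to 0.146. Between PBS libraries of the cell types, same numbers gave 0.0886, 0.161 and 0.183, and different numbers -0.144 to -0.00729. Between CGRP libraries, same numbers gave 0.0698, 0.0325 and 0.103, and different numbers -0.092 to 0.0274. With the number as a replicate block, 289 genes were called in neutrophils, 1007 in macrophages, 7434 between PBS libraries and 406 for the difference, where *Akap10* then passed (-1.43, adjusted p = 0.00249, limma-voom). Among the members and the genes named from the pathway lists, the block changed no other call; genes named from the marker lists were not run with it.

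Signs turned only for values that did not pass the test. In neutrophils *Akap10* was 0.078 with edgeR, 0.039 with DESeq2, 0.0198 without TMM, 0.059 with the block and 0.36 with the library total as a covariate, an alternative chosen after seeing the data; without TMM *Prkaca* was 0.0197 and *Akap13* 0.013. In macrophages *Prkacb* was -0.0013 with edgeR, -0.0021 with DESeq2, -0.0014 with DESeq2 size factors, -0.047 without TMM, -0.0114 without a filter and -0.0109 with at least 10 counts in every library, -0.0044 in the single fit and -0.15 with the covariate. *Prkaca* was -0.012 without TMM and -0.14 with the covariate, with which *Gnas* was -0.13, *Akap13* -0.014 and *Ramp1* 0.025. For the difference *Prkaca* was -0.033 without TMM and *Pkig* 0.0021 with quality weights. Without 1 library, the ranges that crossed 0 in neutrophils were -0.14 to 0.081 for *Prkaca*, -0.17 to 0.026 for *Prkar2b*, -0.10 to 0.0032 for *Gnas*, -0.21 to 0.052 for *Akap13* and -0.36 to 0.42 for *Akap10*. In macrophages they were -0.12 to 0.26 for *Prkaca*, -0.11 to 0.13 for *Prkacb*, -0.046 to 0.22 for *Gnas*, -0.049 to 0.25 for *Gngt2* and -0.20 to 0.015 for *Ramp1*, while those of *Gnai2* (0.14 to 0.40) and *Adcy7* (-0.16 to -0.07) kept their sign. For the difference they were -0.11 to 0.30 for *Prkaca*, -0.021 to 0.57 for *Prkar2a* and -0.12 to 0.087 for *Pkig*. The causes were not tested.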
